A study of Mus musculus with 18 samples.

Results

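The 35 genes described here encode the proteins that carry glucose into the cell, break it down to pyruvate, turn pyruvate into lactate and export it, or pass glucose 6-phosphate through the pentose phosphate pathway. The pyruvate dehydrogenase kinases and Hif1a, the oxygen-sensitive subunit of hypoxia-inducible factor, were counted with them. They were taken by gene symbol, and all 35 were listed among the 23420 genes of the files. The rule used no measured value, but the genes were chosen with earlier results of these data known. The values came from RNA sequencing of splenic B cells from MRL/lpr mice, which carry the lpr mutation of Fas and develop a lupus-like disease, purified with beads by negative selection and cultured for 4 h. There were 18 libraries in 6 groups, 3 to a group. Mice of the first arm were female and all Tlr7-/-, and Tlr997 cells, whose TLR9 carries the TIR signaling domain of TLR7 after editing of the Tlr9 locus, were set beside control cells called Tlr9het. Both were left unstimulated or given CpG, a synthetic oligodeoxynucleotide that activates TLR9, at 10 µg/ml. The sample titles give the control as Tlr9+/- Tlr7-/-, whereas the treatment protocol writes Tlr9-/- for the same mice, and the titles were followed. In the second arm, the cells came from male Tlr779 Tlr9-/- mice, in which TLR7 has received the TIR domain of TLR9 in its own locus, and were either unstimulated or given 5 µg/ml of CL097, a TLR7 agonist. The mice were 5 to 7 weeks old. A control genotype for the second arm was not analysed here. Sex, receptor, agonist, arm and any difference in age cannot be told apart between the arms, so each response was compared only with its own unstimulated cells.

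Glycolysis splits glucose into pyruvate and yields ATP without oxygen. Its committed steps are run by hexokinase, phosphofructokinase and pyruvate kinase, each of which exists as several isozymes with different tissue distributions. Lactate dehydrogenase regenerates the NAD+ that glycolysis consumes, and monocarboxylate transporters carry the lactate out, while pyruvate dehydrogenase kinases restrain the entry of pyruvate into mitochondria. The pentose phosphate pathway has an oxidative branch that makes NADPH and a non-oxidative branch that makes ribose 5-phosphate for nucleotides. B cells enlarge and raise their uptake of glucose when they are activated through antigen or Toll-like receptors.

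Values are log2 CPM, read counts scaled to a common library size, on a log2 scale as the authors' normalization left them, and 3 values in a row are replicates 1, 2 and 3 of a group. The sequencing depth is unknown because the files held no counts. A log2 fold change is the difference between 2 group means, given with its standard error (SE). A gene was called higher or lower where limma's p, adjusted by the Benjamini-Hochberg method over all genes tested, was under 0.05 and the log2 fold change was beyond 0.5 in either direction. Of the 35 genes, 34 reached the filter of 3 libraries over 0 log2 CPM in both arms, and Ldhb did not. The protocol names 3 mice per genotype, but no label ties a library to a mouse, so the p-values measure the spread between these libraries.

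Libraries of a group correlated with each other at r = 0.95 to 0.99 across genes. Tlr7 transcripts were listed at 2.68 to 4.28 log2 CPM in the Tlr9het libraries and at 4.81 to 5.36 in the Tlr997 libraries, both labelled Tlr7-/-, against 6.61 to 7.82 in Tlr779. Tlr9 was listed at 6.93 to 7.47 log2 CPM in the Tlr779 libraries labelled Tlr9-/- and at 7.01 to 8.08 in the first arm. A transcript total does not show whether the deleted part of a gene was present. By the supplement, the Tlr9 locus of Tlr997 cells holds the inserted TIR sequence of Tlr7, and the Tlr7 locus of Tlr779 cells that of Tlr9. The part of these inserts in the listed values was not tested. All 7 B cell markers were detected, and their summed level was 5840 to 7670 CPM without agonist and 1920 to 3460 CPM with it. The summed level of 7 macrophage or monocyte markers was 127 to 464 CPM without agonist and 93.7 to 199 CPM with it, and that of 7 neutrophil markers was 19.1 to 185 CPM over all libraries. The summed T cell markers were at 50.7 to 121 CPM, the NK cell markers at 4.35 to 25.6 CPM and the erythroid markers at 12.4 to 484 CPM. Markers of plasmacytoid dendritic cells were at 23.2 to 43 CPM without and 41.4 to 99.5 CPM with agonist. Those of conventional dendritic cells were at 27.2 to 40.2 CPM without and 68.2 to 98.7 CPM with it. The plasma cell markers were at 554 to 1210 CPM without and 285 to 714 CPM with agonist. In bulk RNA, fewer cells of a type and less RNA per cell cannot be told apart, and the part of these shifts in the results below was not tested.

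The agonists did not move the pathway as a block. CpG raised 11 and lowered 8 of the 34 tested genes in Tlr9het, which is 55.9% of them against 57.9% of all tested genes. In Tlr997, CpG raised 12 and lowered 7, again 55.9% against 55.6% of all tested genes. CL097 raised 6 and lowered 9 in Tlr779, 44.1% against 46.3% of all tested genes. The share of genes that changed was thus close to the background in each response. The median log2 fold change of the 34 genes was 0.11 with CpG in Tlr9het, 0.04 with CpG in Tlr997 and -0.17 with CL097, beside 0.04, 0.07 and -0.02 over all tested genes. What differed between the genes was which isozyme or step went up and which went down. Called higher in all 3 responses were 6 genes: Hk2, Pgam1, Eno2, Ldha, Slc16a1 and Rpe. Called lower in all 3 were 7 genes: Hk1, Gpi1, Pfkfb4, Aldoc, Pdk1, Pdk2 and Taldo1. Called in none of the 3 were 11 genes: Slc2a1, Slc2a3, Hk3, Pfkm, Pfkp, Pfkfb3, Tpi1, Gapdh, Pkm, Pdk3 and G6pdx. The 2 CpG responses share no library, and no gene was called in opposite directions between them. The shares of all tested genes with these patterns were not counted, so the counts show nothing particular to the pathway. The heat map of all 35 genes by library shows these blocks of red and blue, and the plot of fold changes shows their size and error.

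**Figure D1:**
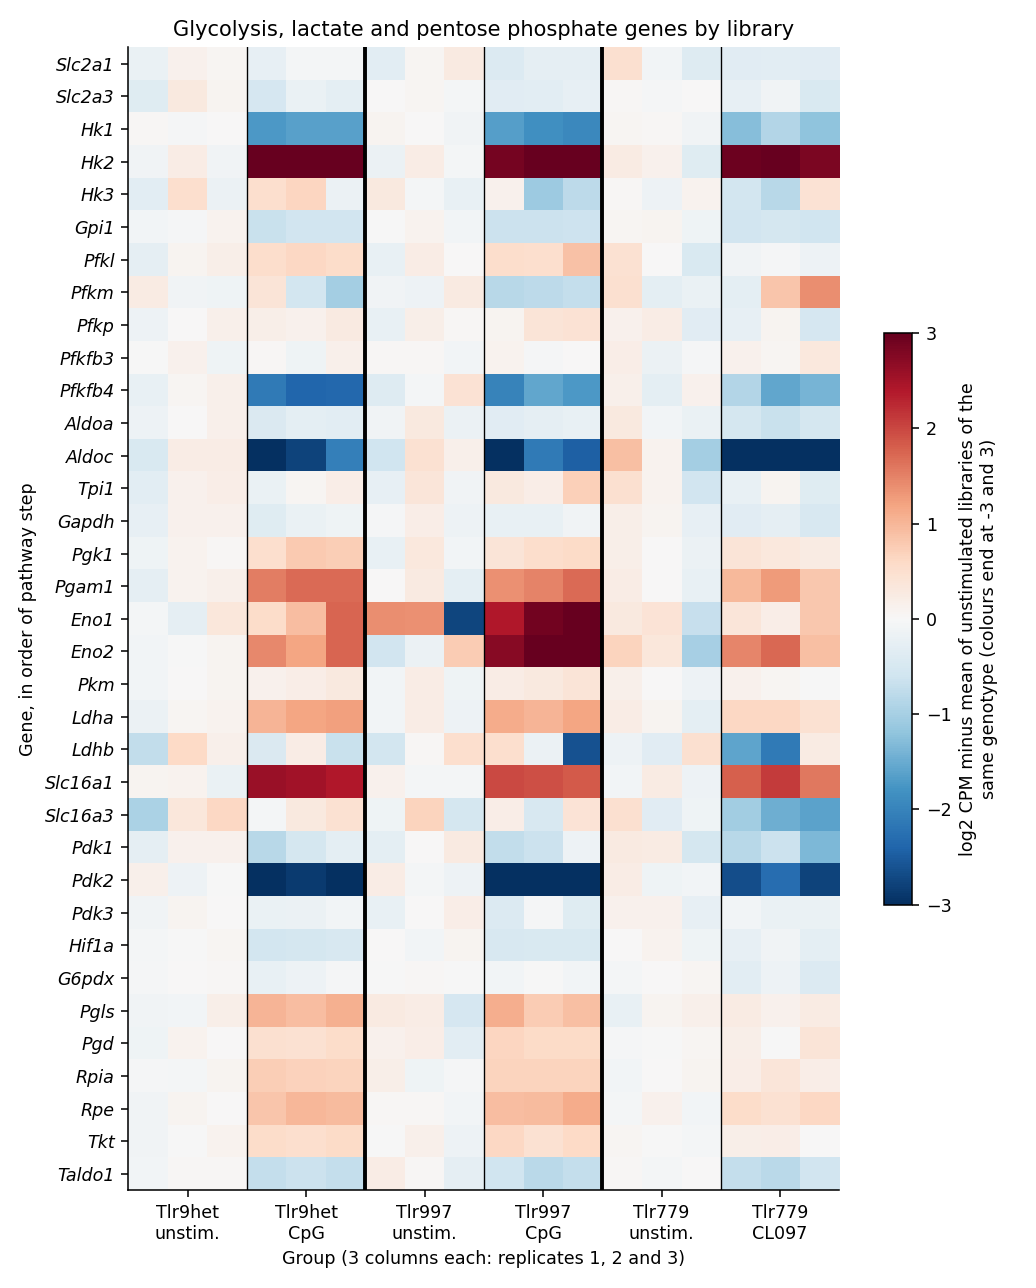
Heat map of the 35 genes (rows, in order of pathway step) in the 18 libraries (columns, 3 per group), coloured by log2 CPM minus the mean of the unstimulated libraries of the same genotype. Colours end at -3 and 3. Hk2, Slc16a1 and Pgam1 are red and Hk1, Pfkfb4, Aldoc and Pdk2 are blue in all 9 stimulated libraries, while Slc2a1, Pfkfb3, Pkm and G6pdx stay pale.

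**Figure D2:**
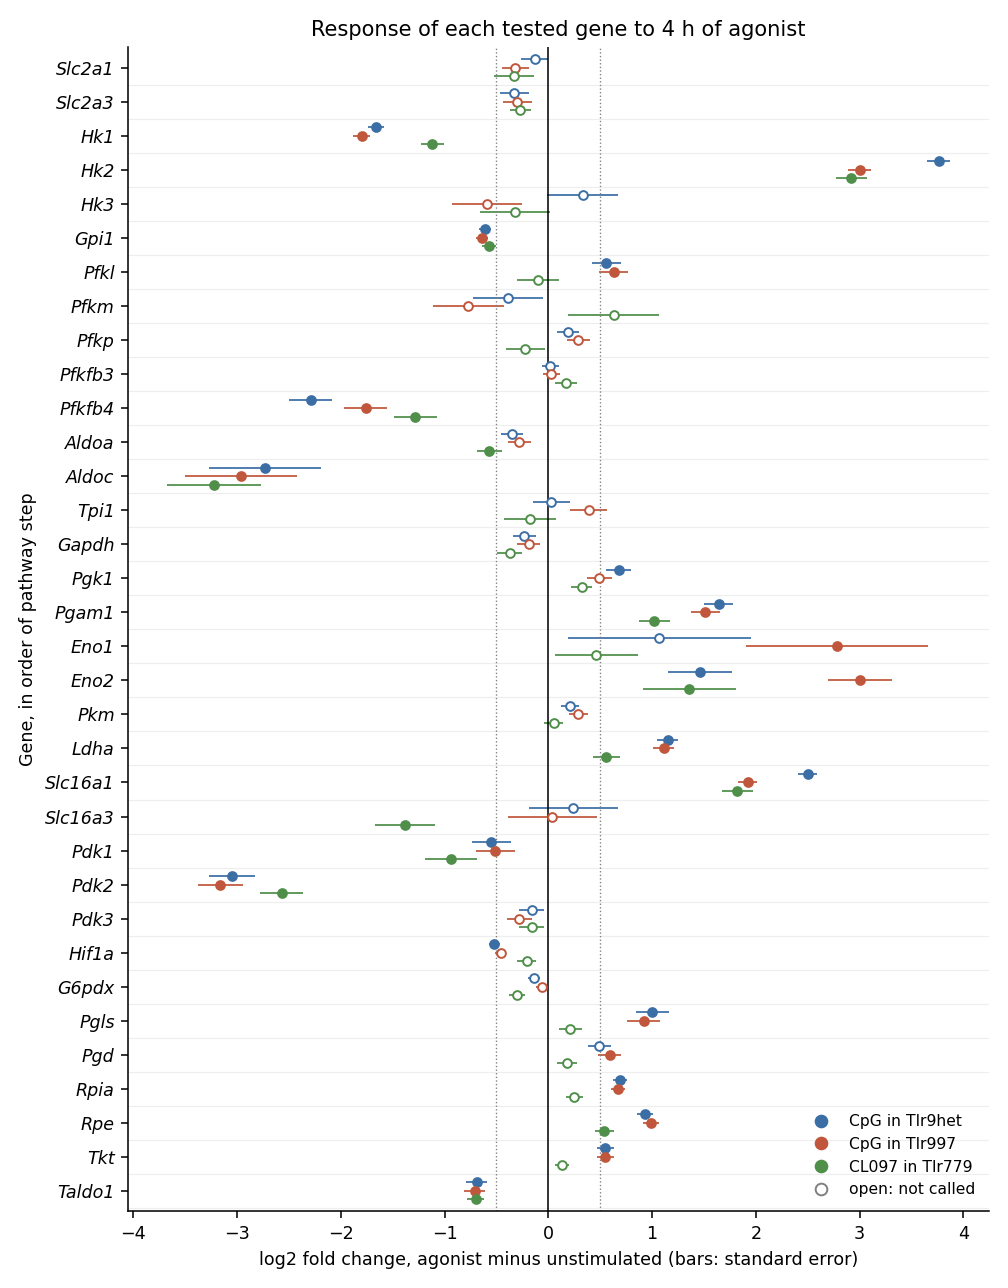
Log2 fold change (horizontal axis, agonist minus unstimulated, bars are the SE) of the 34 tested genes in the CpG response of Tlr9het (blue), the CpG response of Tlr997 (red) and the CL097 response of Tlr779 (green). Filled points were called and open points were not, and dotted lines mark 0.5 in either direction. Hk2 lies farthest to the right in Tlr9het and Tlr779, at 3.76 and 2.92, and beside Eno2 in Tlr997, at 3.00, and Pdk2 and Aldoc farthest to the left.

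The promoters of 4 genes are shown as examples: Hk2, Slc16a1 and Ldha, which were called higher in all 3 responses, and Pdk2, which was called lower in all 3. Other genes, such as Pgam1, Eno2 and Aldoc, changed more than Ldha in each response. Each sequence is 300 bases from RefSeq (build GRCm38.p6), from 250 bases before to 50 bases after an annotated transcription start, written 5′ to 3′ on the strand of the gene. For Ldha and Pdk2, each with 2 annotated starts, the first is shown. Capitals mark ACGTG and its reverse complement. This motif is the core of the hypoxia response element, and CACGTG, which contains it on both strands, is the E-box recognized by Myc and other basic helix-loop-helix factors.
Hk2, chr6:82774405-82774704, minus strand: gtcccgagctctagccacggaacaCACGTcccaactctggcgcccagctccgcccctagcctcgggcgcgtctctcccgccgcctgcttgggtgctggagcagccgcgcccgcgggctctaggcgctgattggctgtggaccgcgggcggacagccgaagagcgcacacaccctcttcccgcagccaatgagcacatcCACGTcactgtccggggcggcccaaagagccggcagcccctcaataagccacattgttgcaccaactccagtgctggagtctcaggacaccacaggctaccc
Slc16a1, chr3:104638414-104638713, plus strand: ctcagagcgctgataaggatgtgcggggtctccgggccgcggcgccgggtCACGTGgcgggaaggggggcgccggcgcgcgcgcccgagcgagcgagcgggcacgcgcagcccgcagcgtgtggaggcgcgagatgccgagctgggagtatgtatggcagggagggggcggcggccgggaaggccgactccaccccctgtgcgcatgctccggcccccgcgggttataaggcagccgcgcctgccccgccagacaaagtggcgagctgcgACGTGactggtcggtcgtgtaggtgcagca
Ldha, chr7:46845554-46845853, plus strand: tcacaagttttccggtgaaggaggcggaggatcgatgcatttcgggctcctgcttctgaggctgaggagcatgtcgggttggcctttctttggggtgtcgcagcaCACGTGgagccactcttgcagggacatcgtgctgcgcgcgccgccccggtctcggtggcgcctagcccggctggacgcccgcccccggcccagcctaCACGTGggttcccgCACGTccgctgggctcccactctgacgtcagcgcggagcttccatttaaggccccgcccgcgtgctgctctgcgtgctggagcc
Pdk2, chr11:95041322-95041621, minus strand: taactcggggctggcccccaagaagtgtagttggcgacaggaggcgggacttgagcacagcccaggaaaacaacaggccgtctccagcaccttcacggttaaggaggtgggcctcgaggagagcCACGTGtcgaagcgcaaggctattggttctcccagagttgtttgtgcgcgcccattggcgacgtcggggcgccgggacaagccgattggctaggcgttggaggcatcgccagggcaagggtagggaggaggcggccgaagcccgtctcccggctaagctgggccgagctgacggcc
Of the 35 genes, 34 had a promoter in the table and Slc2a3 had none. ACGTG was found on either strand in 19 of the 34 genes, or 55.9%, and in 21.8% of the 27025 genes with a promoter. CACGTG, a subset of those matches, was found in 6 of the 34 genes, or 17.6%, and in 8.09% of all. The 6 were Hif1a, Ldha, Pdk2, Pfkfb3, Pfkm and Slc16a1. Every promoter shown holds ACGTG. Those of Eno2 and Rpe, called higher in all 3 responses, and of Gpi1, Pfkfb4, Pdk1 and Taldo1, called lower in all 3, hold none. A gene counted where any of its promoters held the motif. By promoter, ACGTG was in 44.9% of the 49 of these genes and in 19.6% of all 32851. CACGTG was in 12.2% and 7.15% of the same promoters. The genes with a promoter were not limited to those tested here. These shares are a description and carry no test. The promoter shown of Pdk2 holds CACGTG, as those of Ldha and Slc16a1 do. A promoter each of Hk1 and Aldoc holds ACGTG, as those of Hk2 and Pgam1 do. Whether the letters go with the direction of change was not tested. A match names letters in this window, not a bound factor.

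Neither glucose carrier was called in any response. Slc2a1 encodes GLUT1, the basal glucose carrier, and Slc2a3 encodes GLUT3, a carrier of high affinity. In Tlr9het, Slc2a1 was at 5.89, 6.21 and 6.15 log2 CPM unstimulated and at 5.84, 6.02 and 6.02 with CpG. In Tlr997 it was at 6.0, 6.37 and 6.59 unstimulated and at 5.90, 6.04 and 6.04 with CpG, and in Tlr779 at 6.56, 6.0 and 5.71 unstimulated and at 5.76, 5.77 and 5.75 with CL097. The groups overlapped in each pair. The log2 fold changes of Slc2a1 were -0.13, -0.32 and -0.33, and none was called. Slc2a3 was at 4.63, 5.30 and 5.08 log2 CPM in unstimulated and at 4.51, 4.81 and 4.70 in CpG-treated Tlr9het cells. It was at 5.04, 5.09 and 4.97 against 4.69, 4.71 and 4.79 in Tlr997, and at 5.35, 5.28 and 5.32 against 5.07, 5.20 and 4.85 in Tlr779. Its log2 fold changes of -0.33, -0.30 and -0.27 stayed short of the threshold, although the stimulated libraries lay below the unstimulated ones in Tlr997 and Tlr779. Leaving out 1 unstimulated library changed 2 of these calls: Slc2a3 was called lower in Tlr9het without replicate 1 (log2 fold change -0.52, adjusted p = 0.00103), and Slc2a1 in Tlr779 without replicate 3 (-0.52, adjusted p = 0.0295). Per kb of exon, Slc2a1 exceeded Slc2a3 in all 18 libraries, by 1.36 ± 0.17 log2 units (SD, n = 3) in unstimulated Tlr9het.

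The hexokinases, which trap glucose as glucose 6-phosphate, exchanged places. Hk1 encodes the hexokinase found in most tissues, and Hk2 an inducible isozyme that is abundant in muscle and in proliferating cells. Hk2 (chr6:82725025-82774454 in GRCm38) was at 4.77, 5.10 and 4.76 log2 CPM in unstimulated Tlr9het cells and at 8.67, 8.63 and 8.62 with CpG. In Tlr997 it went from 5.00, 5.39 and 5.11 to 8.03, 8.24 and 8.23, and in Tlr779 from 5.14, 5.02 and 4.52 to 7.84, 7.90 and 7.71 with CL097. All 9 stimulated libraries lay above all 9 unstimulated ones. The log2 fold change was 3.76 (SE 0.11), or 13.6-fold, in Tlr9het (adjusted p = 6.3e-12), 3.00 (SE 0.11), or 7.99-fold, in Tlr997 (5.2e-11) and 2.92 (SE 0.15), or 7.58-fold, in Tlr779 (5.5e-06). Of all 34 genes, Hk2 had the largest rise in Tlr9het and Tlr779, and in Tlr997 it shared that place with Eno2.

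Hk1 (chr10:62268855-62379920) moved the other way. It was at 6.48, 6.42 and 6.45 log2 CPM in unstimulated Tlr9het cells and at 4.72, 4.83 and 4.81 with CpG, at 6.58, 6.50 and 6.38 against 4.84, 4.65 and 4.56 in Tlr997, and at 6.70, 6.69 and 6.54 against 5.36, 5.76 and 5.44 in Tlr779. Hk1 fell by 1.66 (SE 0.08) on the log2 scale in Tlr9het, by 1.80 (SE 0.08) in Tlr997 and by 1.12 (SE 0.11) in Tlr779, with adjusted p of 5.3e-10, 3.3e-10 and 7.8e-05. Divided by exon length, Hk1 exceeded Hk2 in every unstimulated library and Hk2 exceeded Hk1 in every stimulated one. The difference of Hk2 minus Hk1 in log2 CPM per kb went from -1.78 ± 0.22 to 3.64 ± 0.09 (SD, n = 3) in Tlr9het, from -1.53 ± 0.23 to 3.27 ± 0.26 in Tlr997 and from -1.96 ± 0.24 to 2.09 ± 0.17 in Tlr779. The smallest p that an exact two-sided permutation test of 3 against 3 libraries allows is 0.10, so this difference was left as a description.

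Hk3, a hexokinase that myeloid cells express strongly, was low. Its 3 values were 1.62, 2.43 and 1.76 against 2.45, 2.58 and 1.77 with CpG in Tlr9het, 2.76, 2.41 and 2.26 against 2.6, 1.38 and 1.68 in Tlr997, and 1.78, 1.59 and 1.86 against 1.19, 0.92 and 2.17 with CL097 in Tlr779. These groups overlapped, and Hk3 was called in none of the 3 responses. It was called lower in Tlr997 with replicates as a block within genotype (log2 fold change -0.59, adjusted p = 0.0448) or without Tlr997 CpG replicate 1 (-0.95, adjusted p = 0.0179), and in Tlr779 without CL097 replicate 3 (-0.69, adjusted p = 0.0498). Gpi1, which converts glucose 6-phosphate to fructose 6-phosphate, fell in all 3 responses by similar amounts, 0.61, 0.64 and 0.57 on the log2 scale with an SE of at most 0.07. Its unstimulated libraries spanned 8.41 to 8.90 log2 CPM and its stimulated libraries 7.81 to 8.29.

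**Figure D3:**
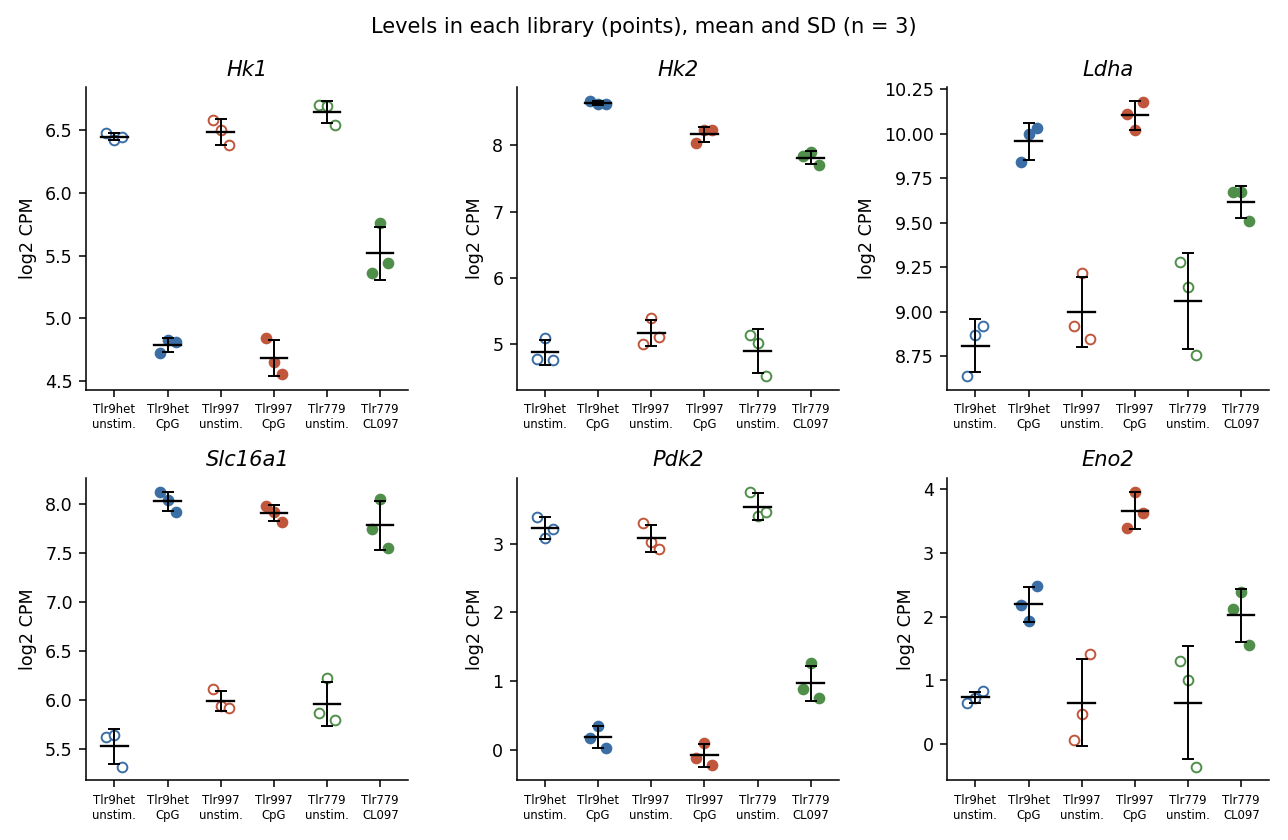
Log2 CPM (vertical axis, with a different range in each panel) of Hk1, Hk2, Ldha, Slc16a1, Pdk2 and Eno2 in each library, with open points for unstimulated and filled points for stimulated libraries, and black bars for the mean and SD of 3. Stimulated and unstimulated libraries of each genotype do not overlap in any panel. Eno2 stands highest in Tlr997 with CpG, at 3.39 to 3.96.

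Phosphofructokinase commits sugar to glycolysis, and its liver (Pfkl), muscle (Pfkm) and platelet (Pfkp) subunits form mixed tetramers. Pfkl was at 5.75, 6.11 and 6.21 log2 CPM in unstimulated Tlr9het cells and at 6.55, 6.65 and 6.57 with CpG, and at 5.86, 6.32 and 6.09 against 6.61, 6.59 and 6.97 in Tlr997. It rose by 0.56 (SE 0.14, adjusted p = 0.00217) in Tlr9het and by 0.63 (SE 0.14, adjusted p = 9.9e-04) in Tlr997. With CL097 it was at 6.28, 6.37 and 6.25 against 6.85, 6.41 and 5.93, a log2 fold change of -0.10 that was not called. The CpG-treated libraries lay above the unstimulated ones, whereas the Tlr779 groups overlapped. Without unstimulated Tlr9het replicate 1, the lowest of its group, the log2 fold change of Pfkl in Tlr9het was 0.43 and it was no longer called.

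Pfkp was at 6.53, 6.71 and 6.84 log2 CPM against 6.87, 6.82 and 6.96 with CpG in Tlr9het, at 6.55, 6.93 and 6.81 against 6.84, 7.14 and 7.19 in Tlr997, and at 6.81, 6.92 and 6.34 against 6.45, 6.77 and 6.18 in Tlr779. Its groups overlapped in all 3 pairs, with log2 fold changes of 0.19, 0.29 and -0.22. Pfkm was the low subunit. It was at 1.42, 1.06 and 1.04 against 1.57, 0.62 and 0.15 in Tlr9het, at 1.46, 1.41 and 1.85 against 0.74, 0.79 and 0.87 in Tlr997, and at 1.76, 0.99 and 1.07 against 0.97, 2.10 and 2.66 in Tlr779. Pfkm had log2 fold changes of -0.39, -0.77 and 0.63 and was not called. In Tlr997, where the groups did not overlap, the value of -0.77 passed the test with replicates as a block within genotype (adjusted p = 0.0377), with a pseudocount of 1 CPM (0.0383) and with no variance trend (0.0414). Leaving out replicate 1 of the stimulated group gave a call of -0.79 in Tlr9het (adjusted p = 0.038) and of 1.10 in Tlr779 (adjusted p = 0.026), in opposite directions. Per kb, Pfkl and Pfkp were within 0.57 log2 units of each other in each library of the first arm.

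Fructose 2,6-bisphosphate, the activator of phosphofructokinase, is made and degraded by the bifunctional enzymes encoded by Pfkfb3 and Pfkfb4. Pfkfb3 spanned 6.16 to 6.65 log2 CPM over all 18 libraries and its log2 fold changes were 0.02, 0.03 and 0.17, none called. Pfkfb4 was at 3.77, 4.06 and 4.16 log2 CPM in unstimulated Tlr9het and at 1.88, 1.62 and 1.63 with CpG. In Tlr997 it was at 3.77, 4.09 and 4.59 against 2.15, 2.6 and 2.43, and in Tlr779 at 4.12, 3.69 and 4.11 against 3.09, 2.42 and 2.58. No stimulated library reached an unstimulated one. Pfkfb4 fell by 2.29 (SE 0.21), 1.76 (SE 0.21) and 1.28 (SE 0.21) on the log2 scale, with adjusted p of 3.2e-07, 5.0e-06 and 0.00112.

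Aldolase cleaves fructose 1,6-bisphosphate, and Tpi1 encodes triosephosphate isomerase, which interconverts the products. Aldoa, the main aldolase of most cells, was within 8.43 to 9.51 log2 CPM in all libraries. Its log2 fold changes were -0.35 and -0.28 with CpG, short of the threshold although the groups did not overlap, and it fell by 0.57 (SE 0.12) with CL097 (adjusted p = 0.00415). Without unstimulated Tlr779 replicate 1 the last value was -0.43 and Aldoa was not called. Aldoc, the brain-type aldolase, was at 1.78, 2.46 and 2.46 log2 CPM in unstimulated Tlr9het and at -1.13, -0.55 and 0.18 with CpG. It was at 1.93, 2.98 and 2.69 against -1.77, 0.42 and 0.08 in Tlr997, and at 3.90, 3.10 and 1.97 against -0.11, -0.29 and -0.29 in Tlr779. Every stimulated library lay below every unstimulated one. Aldoc fell by 2.73 (SE 0.54), 2.96 (SE 0.54) and 3.22 (SE 0.45) on the log2 scale, with adjusted p of 4.5e-04, 2.5e-04 and 4.5e-04. Tpi1 was called in no response, with log2 fold changes of 0.03, 0.39 and -0.18. Without unstimulated Tlr997 replicate 2 the CpG response of Tpi1 in Tlr997 was called at 0.57 (adjusted p = 0.0113).

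Of the 6 genes in the lower part of glycolysis, from glyceraldehyde 3-phosphate to pyruvate, CpG raised 3 in each genotype and CL097 raised 2. None was called lower. These calls are 50%, 50% and 33.3% of the 6, beside 57.9%, 55.6% and 46.3% of all tested genes. Pgam1, the phosphoglycerate mutase, was at 4.55, 4.93 and 4.96 log2 CPM in unstimulated Tlr9het cells and at 6.34, 6.51 and 6.51 with CpG. It was at 4.93, 5.19 and 4.61 against 6.28, 6.39 and 6.60 in Tlr997, and at 5.39, 5.17 and 4.93 against 6.14, 6.44 and 5.97 in Tlr779. The groups were apart in each pair. Pgam1 rose by 1.64 (SE 0.14), 1.51 (SE 0.14) and 1.02 (SE 0.15) on the log2 scale, with adjusted p of 2.0e-07, 5.2e-07 and 6.3e-04. Its reads may be shared with copies elsewhere, since 40.6% of the 75-base windows of its longest coding transcript also occur in transcripts of other genes.

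Eno2, the neuron-type enolase, rose from a low level. It was at 0.65, 0.73 and 0.83 log2 CPM in unstimulated Tlr9het cells and at 2.18, 1.93 and 2.48 with CpG. In Tlr997 it was at 0.07, 0.48 and 1.41 against 3.39, 3.96 and 3.63, and in Tlr779 at 1.31, 1.00 and -0.35 against 2.12, 2.38 and 1.56. Stimulated and unstimulated libraries did not overlap in any of the 3 pairs. Eno2 rose by 1.46 (SE 0.31, adjusted p = 8.3e-04) in Tlr9het, by 3.00 (SE 0.31, adjusted p = 1.3e-06) in Tlr997 and by 1.36 (SE 0.45, adjusted p = 0.0306) in Tlr779. The call in Tlr779 was lost without unstimulated replicate 3 (log2 fold change 0.86, adjusted p = 0.0571), without CL097 replicate 1 (1.31, 0.0774), without CL097 replicate 2 (1.18, 0.0918) and with no filter on low values (adjusted p = 0.168). No 75-base window of Eno2 occurs in another gene.

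Eno1, the enolase of most tissues, was listed near 0 log2 CPM and its value is uncertain. Of its windows, 65.4% occur in other genes, mainly in the copy that the files list as Gm5506 and the annotation as Eno1b. Eno1 was at -0.50, -0.71 and -0.09 log2 CPM against 0.12, 0.49 and 1.31 with CpG in Tlr9het, at -0.42, -0.45 and -4.57 against 0.59, 1.08 and 1.23 in Tlr997, and at 0.36, 0.47 and -0.63 against 0.44, 0.27 and 0.87 in Tlr779. Eno1 was called higher in Tlr997 at 2.78 (SE 0.88, adjusted p = 0.012), where unstimulated replicate 3 lay far below the other libraries. Without that library the value was 1.40 and Eno1 was still called, and with no filter on low values the call was lost (adjusted p = 0.0647). Gm5506 itself was at means of 4.90 to 5.64 log2 CPM over the 6 groups. It was called higher with CpG in Tlr9het, at 0.54 (SE 0.16, adjusted p = 0.00733), and not in Tlr997, at 0.25 (adjusted p = 0.16), nor with CL097, at -0.09. The sum of both, in log2 CPM, had means of 4.94 ± 0.37 and 5.49 ± 0.09 (SD, n = 3) in Tlr9het, 5.40 ± 0.22 and 5.69 ± 0.06 in Tlr997, and 5.50 ± 0.35 and 5.43 ± 0.14 in Tlr779, without and with agonist. How the counting divided reads between both was not tested.

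The abundant enzymes of this stretch moved little. Gapdh was within 8.06 to 9.01 log2 CPM and had log2 fold changes of -0.23, -0.19 and -0.37, none called. Pkm, which encodes the pyruvate kinase of most tissues outside the liver, was within 8.92 to 9.53 and had log2 fold changes of 0.21, 0.29 and 0.05, none called. Pgk1, a phosphoglycerate kinase that yields ATP, was at 6.28, 6.52 and 6.45 log2 CPM against 6.92, 7.21 and 7.16 with CpG in Tlr9het, at 6.53, 7.05 and 6.65 against 7.12, 7.27 and 7.31 in Tlr997, and at 6.97, 6.82 and 6.62 against 7.18, 7.13 and 7.06 in Tlr779. The groups were apart in all 3 pairs. Pgk1 rose by 0.68 (SE 0.12, adjusted p = 1.9e-04) in Tlr9het, and its values of 0.49 in Tlr997 and 0.32 in Tlr779 did not reach the fold threshold with adjusted p of 0.00242 and 0.0202. In Tlr997 it was called without unstimulated replicate 2 (0.65) or CpG replicate 1 (0.55). Gapdh and Pgk1 are also uncertain, with 80.3% and 67.5% of their windows found in other genes.

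Ldha, whose product reduces pyruvate to lactate, was at 8.64, 8.87 and 8.92 log2 CPM in unstimulated Tlr9het cells and at 9.84, 10.00 and 10.03 with CpG. In Tlr997 it was at 8.92, 9.22 and 8.85 against 10.11, 10.02 and 10.18, and in Tlr779 at 9.28, 9.14 and 8.76 against 9.67, 9.67 and 9.51. The groups did not overlap. Ldha rose by 1.15 (SE 0.10), or 2.21-fold, in Tlr9het (adjusted p = 1.8e-07), by 1.11 (SE 0.10), or 2.15-fold, in Tlr997 (2.9e-07) and by 0.56 (SE 0.13), or 1.47-fold, in Tlr779 (0.0065). Without unstimulated Tlr779 replicate 3, the lowest of its group, the last value was 0.41 and was not called. Ldhb, the heart-type subunit, did not reach the filter. Its values were -1.27, 0.06 and -0.39 against -0.97, -0.30 and -1.20 in Tlr9het, -1.58, -0.99 and -0.53 against -0.54, -1.22 and -3.64 in Tlr997, and -0.71, -0.89 and -0.07 against -2.15, -2.68 and -0.32 in Tlr779. Per kb, Ldha exceeded Ldhb in all 18 libraries, by 8.26 to 13.28 log2 units.

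Of the lactate carriers, Slc16a1 encodes MCT1 and Slc16a3 encodes MCT4, which is known for export from strongly glycolytic cells. Slc16a1 (chr3:104638664-104658462) was at 5.62, 5.64 and 5.32 log2 CPM in unstimulated Tlr9het and at 8.12, 8.04 and 7.92 with CpG. It was at 6.11, 5.94 and 5.92 against 7.98, 7.92 and 7.82 in Tlr997, and at 5.87, 6.22 and 5.80 against 7.75, 8.05 and 7.55 in Tlr779. Every stimulated library lay over 1 log2 unit above every unstimulated one. Slc16a1 rose by 2.50 (SE 0.09), or 5.65-fold, in Tlr9het (adjusted p = 4.0e-11), by 1.92 (SE 0.09), or 3.78-fold, in Tlr997 (5.5e-10) and by 1.82 (SE 0.15), or 3.53-fold, in Tlr779 (2.9e-05). Slc16a3 was low and moved differently. It was at 0.35, 1.64 and 1.94 against 1.26, 1.60 and 1.77 in Tlr9het, at 1.28, 2.07 and 0.89 against 1.61, 0.94 and 1.82 in Tlr997, and at 2.83, 2.00 and 2.22 against 1.31, 0.88 and 0.74 in Tlr779. The CpG pairs overlapped, with log2 fold changes of 0.24 and 0.04, while Slc16a3 fell by 1.38 (SE 0.29, adjusted p = 0.00382) with CL097. Whether its responses differ between the arms was not tested. The macrophage or monocyte markers went from a mean sum of 303 to 143 CPM in Tlr779, from 236 to 164 CPM in Tlr9het and from 223 to 148 CPM in Tlr997. The purification depleted cells bearing CD11b, CD11c or Gr-1, markers of myeloid cells. Their part in the value of Slc16a3 was not tested.

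Pyruvate dehydrogenase kinases phosphorylate and inactivate the complex that feeds pyruvate to the tricarboxylic acid cycle. Pdk2 (chr11:95026258-95041371) was at 3.39, 3.08 and 3.22 log2 CPM in unstimulated Tlr9het and at 0.17, 0.35 and 0.03 with CpG. It was at 3.30, 3.03 and 2.92 against -0.12, 0.10 and -0.22 in Tlr997, and at 3.76, 3.40 and 3.46 against 0.88, 1.26 and 0.76 in Tlr779. The stimulated libraries lay far below the others. Pdk2 fell by 3.05 (SE 0.22), 3.16 (SE 0.22) and 2.57 (SE 0.21) on the log2 scale, or 8.27-fold, 8.97-fold and 5.95-fold, with adjusted p of 2.4e-08, 1.9e-08 and 2.8e-05.

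Pdk1, a kinase known as a hypoxia target, was at 4.29, 4.70 and 4.70 log2 CPM against 3.72, 4.04 and 4.26 with CpG in Tlr9het, at 4.42, 4.72 and 4.98 against 3.96, 4.07 and 4.55 in Tlr997, and at 5.26, 5.22 and 4.46 against 4.15, 4.33 and 3.63 in Tlr779. It fell by 0.55, 0.51 and 0.94 on the log2 scale, with adjusted p of 0.0203, 0.0304 and 0.0124, and in Tlr997 the groups overlapped. The calls of Pdk1 depended on the fit and on single libraries. With no filter on low values they were lost in all 3 responses (adjusted p = 0.0888, 0.118 and 0.11). In Tlr997 the call was lost in 10 of 19 alternatives, also with a pseudocount of 1 CPM (-0.49), array quality weights (-0.48), no variance trend (adjusted p = 0.0516) and all 18 libraries in 1 model (0.0637). In Tlr9het the call was lost without unstimulated replicate 2 or 3 or CpG replicate 1 (log2 fold changes -0.49, -0.49 and -0.41). Among single libraries, in Tlr997 it was lost without unstimulated replicate 2 or 3 or CpG replicate 1 or 2 (-0.51, -0.38, -0.39 and -0.45, the first with an adjusted p of 0.0638), and in Tlr779 without unstimulated replicate 1 (-0.80, adjusted p = 0.0515). Pdk3, another isozyme, was at 4.97, 5.15 and 5.08 against 4.86, 4.88 and 4.98 in Tlr9het, at 5.19, 5.43 and 5.62 against 5.00, 5.37 and 5.04 in Tlr997, and at 5.56, 5.55 and 5.18 against 5.34, 5.24 and 5.23 in Tlr779. Its log2 fold changes of -0.16, -0.28 and -0.16 were not called. Per kb, Pdk2 minus Pdk1 went from -0.12 ± 0.38 to -2.62 ± 0.36 log2 units (SD, n = 3) in Tlr9het, from -0.42 ± 0.47 to -3.07 ± 0.43 in Tlr997 and from -0.23 ± 0.41 to -1.86 ± 0.20 in Tlr779, and Pdk3 exceeded Pdk1 in all 18 libraries.

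Hif1a libraries spanned 8.05 to 8.31 log2 CPM without agonist and 7.69 to 8.09 with it. Hif1a fell by 0.52 (SE 0.05, adjusted p = 8.8e-07) with CpG in Tlr9het, and had log2 fold changes of -0.46 (SE 0.05, adjusted p = 4.1e-06) in Tlr997 and -0.21 (SE 0.09, adjusted p = 0.0603) with CL097, neither called. Without unstimulated Tlr9het replicate 3 the first value was -0.49 and was not called. The protein level of hypoxia-inducible factor, which oxygen controls through degradation, was not measured by these data.

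In the pentose phosphate pathway the oxidative branch starts with G6pdx, the dehydrogenase that sets its flux. G6pdx was within 6.18 to 6.67 log2 CPM in all libraries and was not called, with log2 fold changes of -0.14, -0.06 and -0.30. Pgls, the lactonase that follows, was at 6.07, 6.09 and 6.35 log2 CPM against 7.18, 7.1 and 7.24 with CpG in Tlr9het, and rose by 1.00 (SE 0.16, adjusted p = 9.5e-05) there and by 0.92 (SE 0.16, adjusted p = 2.3e-04) in Tlr997. With CL097 its log2 fold change was 0.21, not called. Pgd, the second NADPH-producing enzyme, rose by 0.59 (SE 0.11, adjusted p = 2.6e-04) in Tlr997, and its values of 0.49 (SE 0.11) in Tlr9het and 0.18 with CL097 were not called. Without unstimulated Tlr997 replicate 3, Pgd had a log2 fold change of 0.43 and was not called in Tlr997, and without unstimulated Tlr9het replicate 2 or 3 or CpG replicate 2 it was called in Tlr9het at 0.55, 0.50 and 0.52.

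The 4 genes of the non-oxidative branch were all called in both CpG responses, in which 57.9% and 55.6% of all tested genes were called. Rpia, the ribose 5-phosphate isomerase, rose by 0.69 (SE 0.07) in Tlr9het and 0.67 (SE 0.07) in Tlr997. Rpe, the epimerase, rose by 0.93 (SE 0.08), 0.99 (SE 0.08) and, with CL097, 0.54 (SE 0.09), with adjusted p of 1.3e-07, 7.9e-08 and 0.00125. Tkt, the transketolase, rose by 0.55 (SE 0.08) in both CpG responses, with adjusted p of 2.9e-05 and 2.7e-05. Taldo1, the transaldolase, was the exception and fell by 0.69 (SE 0.10), 0.71 (SE 0.10) and 0.70 (SE 0.08) in the 3 responses, with unstimulated libraries at 7.05 to 7.58 log2 CPM and stimulated libraries at 6.50 to 6.97. With CL097, Rpia and Tkt had log2 fold changes of 0.25 and 0.13, not called. Rpe was not called with CL097 without CL097 replicate 3 or unstimulated replicate 3 (0.50 each), and Tkt not in Tlr9het without unstimulated replicate 1 (0.49) nor in Tlr997 without unstimulated replicate 3 (0.48). Of the windows of Rpe, 18.3% occur in Kansl1l.

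Unstimulated Tlr997 and Tlr9het cells were compared to ask whether the exchanged domain alone altered these genes. None of the 34 genes was called by limma, against 0.0174% of all tested genes, and 4 of them had an unadjusted p under 0.05, as did 1237 of all 11494 tested genes. The count was 0 in every one of the other fits and thresholds tried. The 3 genes with the lowest adjusted p were Slc16a1, Pdk3 and Pgk1. Slc16a1 was at 5.92 to 6.11 log2 CPM in Tlr997 and 5.32 to 5.64 in Tlr9het, a difference of 0.46 (SE 0.09, adjusted p = 0.295). The libraries did not overlap. Pdk3 differed by 0.35 (SE 0.12, adjusted p = 0.362) and Pgk1 by 0.33 (SE 0.12, adjusted p = 0.383), each also without overlap. The share of all tested genes without overlap was not counted for unstimulated cells, so this separation carries no result. For Hk2 the difference was 0.29, with a 95% interval of 0.06 to 0.52 before adjustment and overlapping libraries. With the replicate number as a block, the adjusted p of Slc16a1 was 0.031, with the difference still short of 0.5.

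With CpG, 1 of the 34 genes differed between the genotypes by the thresholds, against 2.72% of all tested genes. Eno2 was at 3.39, 3.96 and 3.63 log2 CPM in Tlr997 and at 2.18, 1.93 and 2.48 in Tlr9het, so that all 3 Tlr997 libraries lay above the others. The difference was 1.46 (SE 0.31), or 2.75-fold (adjusted p = 0.0151). It was lost without Tlr997 CpG replicate 2 (1.31, adjusted p = 0.0708), without Tlr9het CpG replicate 1 (1.45, 0.0615), without Tlr9het CpG replicate 2 (1.33, 0.073) and with no filter on low values (adjusted p = 0.0761). Hk2 was lower in Tlr997, at 8.03 to 8.24 against 8.62 to 8.67 log2 CPM, by 0.48 (SE 0.11, adjusted p = 0.0207), short of the fold threshold. Without Tlr997 CpG replicate 2 or 3 the difference for Hk2 was -0.51 in both cases and was called. Tpi1 was at 7.43 to 7.94 in Tlr997 and 6.78 to 7.18 in Tlr9het, a difference of 0.63 (SE 0.18, adjusted p = 0.0589), which was called with the replicate number as a block (adjusted p = 0.0158). Pfkfb4 differed by 0.69 (SE 0.21, adjusted p = 0.0799). In all, 7 of the 34 genes had every Tlr997 library above every Tlr9het library, as did 14.6% of all tested genes, and 1, Hk2, had every one below, as did 15.4%. The summed B cell markers with CpG were 2850 to 3460 CPM in Tlr997 and 1920 to 2010 CPM in Tlr9het. The markers did not differ alike: Ms4a1 was at 10.47 to 10.64 against 9.26 to 9.34 log2 CPM, while Cd79a overlapped at 7.49 to 7.97 against 7.61 to 7.74. Their part in these differences was not tested.

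The size of the CpG response was compared between the genotypes by the interaction, the response of Tlr997 minus that of Tlr9het. It was called for 2 of the 34 genes, both smaller in Tlr997, against 1.54% of all tested genes. The rise of Hk2 was 3.00 in Tlr997 and 3.76 in Tlr9het, which leaves a difference of -0.77 (SE 0.15, 95% interval -1.10 to -0.44, adjusted p = 0.0235). The call of Hk2 was lost in 9 of 24 alternatives. Among these were the fits without Tlr997 CpG replicate 1 (-0.70, adjusted p = 0.0542), unstimulated Tlr9het replicate 1 (-0.71, 0.0713) or Tlr9het CpG replicate 1 (-0.75, 0.0648), 2 (-0.77, 0.0585) or 3 (-0.78, 0.0637). Slc16a1 rose by 1.92 against 2.50, a difference of -0.58 (SE 0.13, 95% interval -0.86 to -0.30, adjusted p = 0.0376). Its call was lost in 14 of 24 alternatives, among them without Tlr997 unstimulated replicate 1 or 2, any 1 of the 3 Tlr997 CpG replicates, Tlr9het unstimulated replicate 1 or 3 and any 1 of the 3 Tlr9het CpG replicates, over which the difference ran from -0.64 to -0.48. In both genes the stimulated and the unstimulated levels differed between the genotypes in opposite directions. For Hk2 the stimulated levels differed by -0.48 (SE 0.11), without overlap, and the unstimulated levels by 0.29 (SE 0.11), with overlap. For Slc16a1 the stimulated levels differed by -0.12 (SE 0.09), with overlap, and the unstimulated levels by 0.46 (SE 0.09), without overlap. Eno2 had the opposite sign, with a difference of 1.54 (SE 0.44, adjusted p = 0.099) that was not called. It was called with replicates as a block within genotype (adjusted p = 0.0476) or without unstimulated Tlr997 replicate 3 (1.92, adjusted p = 0.00905). The low gene Hk3 had a larger negative difference than Hk2, -0.92 (SE 0.48, adjusted p = 0.369), and was not called.

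**Figure D4:**
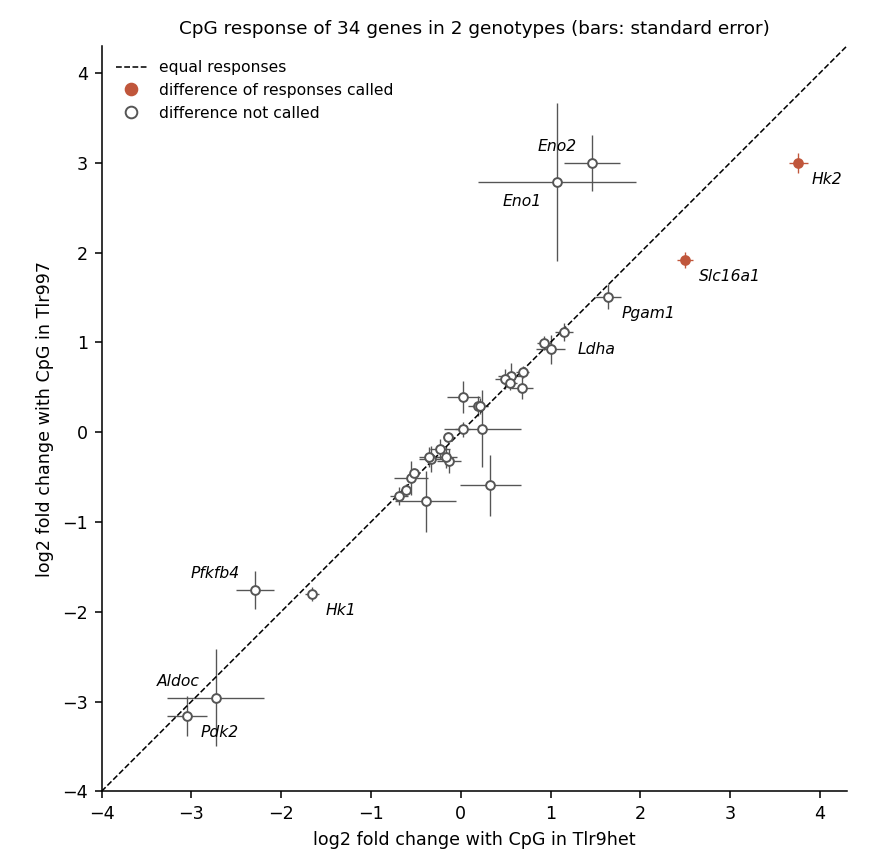
CpG response of the 34 tested genes in Tlr9het (horizontal axis) and Tlr997 (vertical axis) as log2 fold changes with their SE, with a dashed line for equal responses. Red points are the 2 genes whose difference of responses was called, Hk2 and Slc16a1, which lie under the line. Most other points lie on or near the line. Hk3 lies under it by 0.92 (SE 0.48) and was not called, and Eno1 and Eno2 lie above it. Unstimulated Tlr997 replicate 3, at -4.57 log2 CPM for Eno1, adds to the height of Eno1.

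A list of 101 other genes of carbohydrate metabolism and hypoxia, of which 72 were tested in the first arm and 71 in the second, gives the surroundings of these changes. CpG raised 19 and lowered 26 of them in Tlr9het and raised 18 and lowered 28 in Tlr997, while CL097 raised 14 and lowered 27. The shares called were 62.5%, 63.9% and 57.7%, beside 57.9%, 55.6% and 46.3% of all tested genes. Of all tested genes, 29.7%, 29.6% and 22.7% were called higher and 28.2%, 26% and 23.6% lower. The median log2 fold changes of the list were -0.33, -0.34 and -0.36. Txnip, whose product curbs glucose uptake, was at 8.38 to 8.86 log2 CPM in unstimulated and 5.66 to 6.77 in stimulated libraries. It fell by 2.09 (SE 0.10), 2.22 (SE 0.10) and 2.72 (SE 0.09), and was the only gene called among the glucose-sensing genes in Tlr9het and Tlr779. Among the other glucose carriers, 3 of 11 were tested, and Slc2a8, an intracellular carrier, fell by 4.94 (SE 0.45), 4.36 (SE 0.45) and 1.86 (SE 0.23), from 2.05 to 2.69 log2 CPM in unstimulated cells. Slc2a9, a urate and hexose carrier, fell by 1.74, 1.61 and 1.48. The third, Slc2a6, was called higher with CL097 at 0.53 (SE 0.10) and was not called with CpG, at -0.22 in Tlr9het and 0.32 in Tlr997.

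Among genes beside the pentose phosphate pathway, H6pd, the hexose 6-phosphate dehydrogenase of the endoplasmic reticulum, fell by 2.20, 2.34 and 2.22, with an SE of at most 0.18. Prps1, which turns ribose 5-phosphate into the precursor of nucleotides, rose by 1.57, 1.36 and 1.33, with an SE of at most 0.08. Among 10 tested genes of pyruvate entry, 4 rose and 1 fell in each CpG response and 2 rose and 1 fell with CL097. These are 50%, 50% and 30% of the 10, beside 57.9%, 55.6% and 46.3% of all tested genes. Pdp1, the phosphatase that reactivates pyruvate dehydrogenase and so opposes the kinases, rose by 1.37, 1.35 and 0.71, whereas Pdpr, the regulatory subunit of that phosphatase, fell by 0.98, 0.85 and 1.04. Of 24 tested genes of other isozymes and side branches of glycolysis, 6 rose and 11 fell in Tlr9het. In Tlr997, 6 rose and 10 fell, and in Tlr779, 5 rose and 11 fell. These are 70.8%, 66.7% and 66.7% of the 24, beside the same shares of all tested genes. Minpp1, an inositol phosphate phosphatase that also acts on 2,3-bisphosphoglycerate, rose by 1.88, 1.63 and 1.24, and Gpd1l, a glycerol 3-phosphate dehydrogenase-like enzyme, fell by 2.71, 2.59 and 1.96.

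Of gluconeogenesis genes, 4 of 8 were tested. In the 3 responses 75%, 100% and 50% of these 4 were called, beside 57.9%, 55.6% and 46.3% of all tested genes. Slc37a4, the glucose 6-phosphate carrier of the endoplasmic reticulum, fell by 2.10, 1.64 and 1.73 on the log2 scale. CpG raised 2 of the 4 in each genotype: G6pc3, a glucose 6-phosphatase, by 0.85 and 0.63, and Pck2, the mitochondrial phosphoenolpyruvate carboxykinase, by 0.77 and 0.83. With CL097, Pck2 fell by 0.51 and G6pc3 was not called, at 0.25. Pcx, the pyruvate carboxylase, was called in Tlr997, where it fell by 1.21 (SE 0.48, adjusted p = 0.0374). Of other lactate genes, 5 of 8 were tested, with 2 called higher and 1 lower in Tlr9het, 1 and 1 in Tlr997, and 2 and 0 in Tlr779. These are 60%, 40% and 40% of the 5, beside the same shares of all tested genes. The gene called lower with CpG was Slc16a7, which encodes MCT2 and fell by 1.98 and 1.77, while Slc16a6, another member of the monocarboxylate carrier family, rose by 0.90, 0.84 and 1.11. Among 16 tested genes of the hypoxia pathway, 3 rose and 6 fell in Tlr9het, 4 rose and 7 fell in Tlr997, and 3 rose and 9 fell in Tlr779. These are 56.2%, 68.8% and 75% of the 16, beside the 57.9%, 55.6% and 46.3% of all tested genes. Adm, which encodes adrenomedullin, rose by 2.44 (SE 0.26), 2.58 (SE 0.26) and 2.44 (SE 0.19), and Vegfa, a growth factor of vessels, by 2.15, 2.02 and 0.77. Bnip3, a mitophagy receptor, fell by 1.53, 1.12 and 2.02. Between genotypes, none of the list was called unstimulated or in the interaction, and with CpG only Ndrg1, a stress-response gene, was called, at 2.25, 2.43 and 1.82 log2 CPM in Tlr997 against 2.97, 2.99 and 2.95 in Tlr9het, lower by a log2 fold change of -0.80 (SE 0.21, adjusted p = 0.0383).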

How the data were processed

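RNA from 18 libraries, 3 per group, was sequenced after a stranded mRNA library protocol. Per the labels and methods, the authors trimmed reads with Trim Galore 0.6.5 and checked them with FastQC 0.11.7, aligned them to mm10 with STAR 2.6.1a and counted genes with featureCounts (Subread 2.0.1). They deposited log2 CPM per gene after voom and quantile normalization. Counts were not analysed here, so depth is unknown and no counting interval could be given. CPM rebuilt from the values summed to 991992 to 1004412 per library. The low values depended on the replicate number for some genes. In the first arm, 6614 genes were below -4 log2 CPM throughout its 12 libraries, of which 6306 had a single value within each replicate number, and for 822 that value differed between numbers. What made these values is not given in the sources used here. An adjustment by replicate number would narrow the spread between replicates.

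Groups were taken from the sample labels. The 12 libraries of the first arm were fitted in one limma model (limma 3.58.1, R 4.3.3, empirical Bayes with a variance trend, no block), and the 6 Tlr779 libraries in another. Genes over 0 log2 CPM in at least 3 fitted libraries were tested, 11494 and 11082 of 23420. Adjusted p are limma's with Benjamini-Hochberg adjustment over all genes tested. The procedure was tested on simulated data. The genes and lists, marker lists included, were chosen with earlier results of these data known. Every one of the 35 genes was named. Values in each library were printed for the 3 called genes with the highest and lowest fold change in each response, genes called between genotypes or the 3 with the lowest adjusted p, and isozyme sets. Of the other pathway genes, the called gene with the highest and lowest fold change of a group was eligible.

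Levels per kb used the exon length of GENCODE vM21, and shared sequence was searched in 75-base windows of its transcripts. Promoters came from RefSeq. Samples with the same replicate number deviated together in Tlr9het (r = 0.51, 0.29 and 0.51) and in Tlr779 (0.25, 0.49 and 0.33), but not in Tlr997 (0.37, 0.08 and 0.02) nor between genotypes, as judged from the data, since no label says what a number shares. Alternatives were other filters, a pseudocount of 1 CPM, other scalings, array quality weights, no variance trend, other sets of libraries and fold thresholds, a replicate block, and leaving out each library.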

Additional observations from a re-analysis of the deposited data

Results flagged for a closer look

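For 2 of the 34 genes the CpG response differed between the genotypes by the interaction in limma, against 1.54% of all tested genes. Hk2 rose by 3.76 on the log2 scale in Tlr9het and by 3.00 in Tlr997, a difference of -0.77 (SE 0.15, adjusted p = 0.0235). Slc16a1 rose by 2.50 in Tlr9het and by 1.92 in Tlr997, a difference of -0.58 (SE 0.13, adjusted p = 0.0376). Both calls depended on the fit and on single libraries: that of Hk2 was lost in 9 and that of Slc16a1 in 14 of 24 alternatives. Groups of 3 libraries are too small for a search for single outlying samples, so none was made.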

How the results depend on the processing

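A fold threshold of 1 on the log2 scale left 10 of the 34 genes called with CpG in Tlr9het and 10 in Tlr997. It left 9 with CL097 and 0 for the difference of responses. Of all tested genes, 35.3%, 32.8%, 23.3% and 0.4% were called at that threshold, in the same order. The other alternatives kept the counts of the 3 responses within 1.5 times. The single difference between genotypes with CpG became 0 with no filter, 2 with the replicate block, 2 with no fold threshold, 2 with only the 6 libraries compared and 3 with array quality weights, and 0 to 2 when each library was left out. Of all tested genes, 0.798%, 2.91%, 5.92%, 3.43% and 4.22% were called in these fits, and 1.63% to 2.17% with 1 library left out. The 2 differences of responses became 0 with no filter, 0 with no variance trend, 0 with all 18 libraries in 1 model and 0 to 3 when each library was left out. Of all tested genes, 0.333%, 0.853% and 1.04% were called in the first 3 of these fits, and 0.759% to 2.58% with 1 library left out. With the replicate block within genotype, 21 genes were called in Tlr997, 19 in Tlr9het and 3 for the difference of responses. The shares of all tested genes were 56.6%, 58.8% and 2.85%. In Tlr779 the block on the replicate number alone called 15 genes, against 48.6% of all tested genes. Hk3, Pfkm and Eno2 gained a call with the block within genotype, and Tpi1 with the block on the replicate number alone. Neither block changed another call. Of 1037 refits of single genes that were called, 953 kept the call and its direction, 84 lost it and 0 reversed. Of 2849 refits of genes not called, 2804 stayed not called and 45 gained a call, and in 133 the sign of the uncalled value changed. Without counts, the precision of the genes near 0 log2 CPM, such as Aldoc, Eno1, Eno2, Ldhb and Slc16a3, cannot be given.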
